A study of Mus musculus with 10 samples.

Results

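Transcripts of 10 genes that mark the formative and primed epiblast, Fgf5, Fgf8, Fgf15, Otx2, Pou3f1, Sox3, Zic2, Utf1, Grhl2 and Cdh2, were examined in 10 mouse embryonic stem cell (ESC) lines. The genes were listed by name, and all 10 were present among the 20206 genes measured. All lines were wild-type C57BL/6 ESCs labelled male, each made from a blastocyst taken at embryonic day 3.5. The mothers, 7 to 9 weeks old at mating, ate either a low protein diet with 9% casein (LPD, 5 lines) or an isocaloric normal protein diet with 18% casein (NPD, 5 lines) from mating until that day. The lines are LPD lines 1, 4, 6, 20 and 40 and NPD lines 8, 15, 21, 36 and 51, and per-line values are always given in this order. Diet was therefore never applied to the cultures themselves, and each line, derived from a different mother, served as 1 replicate. RNA came from undifferentiated cells grown without the fibroblast layer on which the lines had been established.

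A mouse ESC held in medium with leukaemia inhibitory factor resembles the naive epiblast of the blastocyst. On leaving that state the epiblast goes through a formative phase, in which it becomes able to respond to signals for all germ layers, and then a primed phase after implantation, when it forms a polarised epithelium. FGF ligands acting through ERK drive this change, the transcription factors OTX2 and POU3F1 redirect enhancer use, and GRHL2 keeps epithelial genes open while the naive factors are lost. Utf1 is already expressed in naive ESCs, whereas Fgf5 is usually low there, and cultures with serum replacement commonly hold cells at several points along this path.

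The sequences before the start sites of Utf1, Fgf5 and Otx2 are shown because these 3 of the 10 genes had an entry in the RefSeq table used here. They are on GRCm38.p6 and read 5′ to 3′ on the strand of the gene. Each covers the 250 bases before a start, cut short at the first base of an annotated exon of the gene, which left 183 bases for Utf1. Capitals mark the letters of a GC box (GGGCGG) or a TATA box (TATAAA) wherever they lie, and either may read on the other strand.
Utf1 (chr7:139943606-139943788, plus strand): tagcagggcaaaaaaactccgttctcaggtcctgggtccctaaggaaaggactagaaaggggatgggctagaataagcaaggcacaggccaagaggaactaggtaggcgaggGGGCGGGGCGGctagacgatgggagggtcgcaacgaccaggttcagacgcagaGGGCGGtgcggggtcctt
Fgf5 (chr5:98253934-98254183, plus strand): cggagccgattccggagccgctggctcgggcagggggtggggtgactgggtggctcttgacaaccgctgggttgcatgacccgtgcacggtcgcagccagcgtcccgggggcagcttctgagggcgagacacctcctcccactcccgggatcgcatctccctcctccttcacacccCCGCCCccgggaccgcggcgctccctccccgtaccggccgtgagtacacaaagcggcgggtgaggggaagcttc
Otx2 (chr14:48667645-48667894, minus strand): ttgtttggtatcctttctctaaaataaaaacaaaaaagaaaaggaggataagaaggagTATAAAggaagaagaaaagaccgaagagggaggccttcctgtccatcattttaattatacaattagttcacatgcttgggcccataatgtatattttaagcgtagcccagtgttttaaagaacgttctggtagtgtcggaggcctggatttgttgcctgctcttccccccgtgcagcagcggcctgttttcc
The Utf1 stretch held 3 GC boxes, the first 2 of them overlapping, and the Fgf5 stretch held 1. A GC box on either strand was present in 32.7% of the 250-base windows before all 32851 starts in the RefSeq table. The Otx2 window belongs to 1 of 4 starts listed for that gene and lies inside the annotated gene but outside its exons. It held the letters TATAAA 1 time, toward its far end and not close to the start. These letters were found somewhere in 12.4% of all windows. The octamer bound by POU factors (ATGCAAAT) was in none of these 3 stretches, against 1.60% of all windows, and the core bound by OTX proteins (TAATCC), in 6.25% of all windows, was also absent from them. The window before another of the Otx2 starts, chr14:48665110-48665359, which overlaps annotated exons and is not shown, held 1 OTX core. The Fgf5 window held 24 CpG dinucleotides and was 70.8% G or C, the Utf1 window 14 and 61.6%, and the Otx2 window 6 and 42.0%, against medians of 6 and 52.4%. A gene total does not show which of several starts was in use.

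Values are the normalized estimated counts that the authors deposited, 1 per gene and line, which are not whole reads. The lines were checked as ESCs by 8 general pluripotency genes, none of which was at 0 in any line, with a summed level of 59898 to 85478 in LPD lines and 63341 to 84275 in NPD lines. The lines differed in depth. What 1 read was worth lay between 0.726 and 0.848 units in LPD lines 1 and 20 and all NPD lines, but was 2.92 in LPD line 4, 1.39 in LPD line 6 and 1.58 in LPD line 40, so that the lowest values rest on the fewest reads in LPD lines. The Y-linked gene Ddx3y stood at 7.70 in NPD line 15 and 174 in LPD line 4, against 1110 to 1493 in the other lines, although every line was labelled male. In NPD line 15 the 334 X-linked genes whose mean reached 100 lay a median of 0.49 above the middle of the lines on the log2 scale. Results with these lines left out are given where they changed a result.

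Per kilobase of transcript, the 10 genes spanned a wide range of levels. Utf1, which encodes a chromatin-bound factor already present in naive ESCs, stood at 7381 ± 1231 units per kb (SD, n = 10 lines). Zic2, a zinc finger transcription factor needed in the neural plate, stood at 474 ± 159.7 and Otx2 at 199.8 ± 97.5. This order of Utf1, Zic2, Otx2 and then Pou3f1 was kept between neighbours in 10 of 10 lines. Below them Pou3f1 (61.5 units per kb) and Grhl2 (53.2) were in that order in 6 of 10 lines only, as were Grhl2 and Sox3 (28.2). Sox3 lay above Cdh2 (19.7) in 7 lines and Cdh2 above Fgf15 (9.78) in 8. The FGF ligands held the lowest levels, with Fgf15 above Fgf5 (8.66) in 6 lines and Fgf5 above Fgf8 (4.83) in 8, so the order within this lower group was not fixed across lines. Length here is the mean over annotated coding transcripts, so these levels are approximate for genes with several isoforms such as Otx2, with 11.

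**Figure D1:**
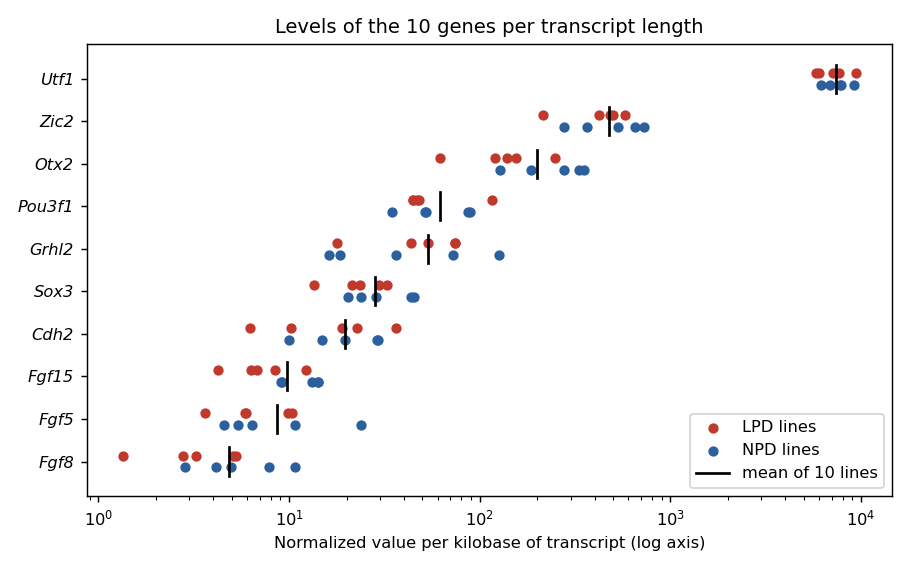
Normalized value per kilobase of transcript (log axis) of each of the 10 genes, with 1 point for each LPD line (red) and NPD line (blue) and a black bar at the mean of 10 lines. The points of Utf1 stand apart from all others around a mean of 7381 units per kb, those of Zic2 and Otx2 overlap around means of 474 and 199.8, those of the lower genes also run into each other, and Fgf8 has the lowest mean at 4.83.

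Whether the mother's diet went with the level of these genes was tested with limma on log2(value + 1). The 14354 genes whose mean over the lines reached 10 entered the fit. Log2 differences below are LPD minus NPD on that scale, where the added 1 shrinks the differences of genes with low values. Genes are counted as lower or higher in LPD by the sign of this estimate, whether or not it passed a test. Fgf8, with a mean of 4.44, was under that minimum, so 9 of the 10 genes were tested. None of the 9 passed a Benjamini-Hochberg adjusted p of 0.1 in limma, and 0% of all genes tested did, whether at 0.1 or at 0.05. At an unadjusted p under 0.05, 1 of the 9, Otx2, was called, lower in LPD. Over all genes tested 721 (5.02%) had such a p, 313 of them lower in LPD (2.18%). Of these 721 genes 56.6% were higher in LPD, and 40.2% of the corresponding genes were after rescaling each line to the same total. The LPD lines lay wholly below or wholly above the NPD lines in 0 of the 9 genes and in 1.02% of all genes tested. The estimate was below 0 for 8 of the 9 genes, with a median log2 difference of -0.26, where 49.5% of all genes tested were below 0 and their median was 0.00. This number was 7 without LPD line 4 and NPD line 15 together and 6 without LPD lines 4, 6 and 40, and with 1 line left out it ranged from 6 (without NPD line 36) to 9 (without NPD line 21 or 51).

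**Figure D2:**
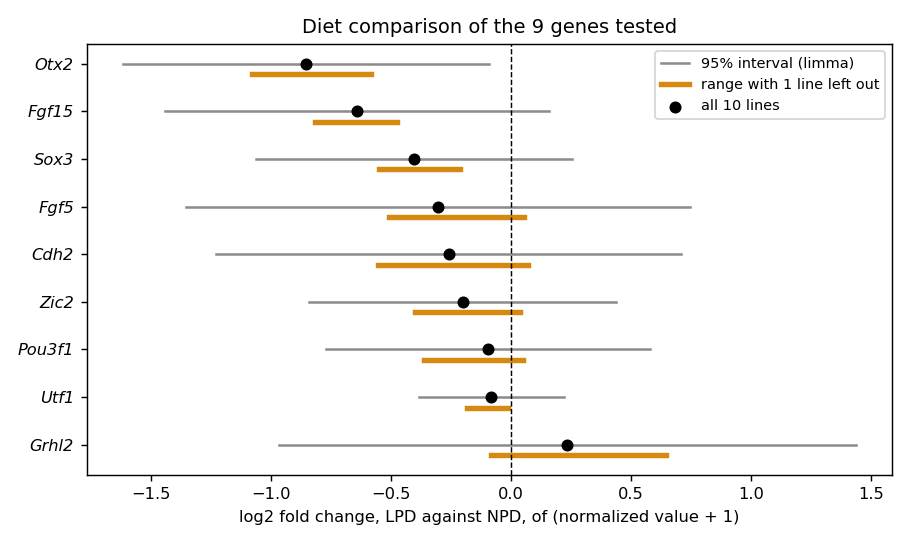
Log2 fold change of LPD against NPD (x axis) for the 9 genes tested, with the estimate over 10 lines (black point), its 95% interval from limma (grey) and the range of estimates with 1 line left out (orange). The interval of Otx2, -1.62 to -0.09, is the only one of the 9 that leaves out 0 before adjustment, and the left-out range crosses 0 for Fgf5, Cdh2, Zic2, Pou3f1 and Grhl2.

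Among the ligands, Fgf15 had the clearest separation of the diets. Fgf15 (chr7:144896531-144900953, plus strand) is the mouse counterpart of human FGF19 and is made in the early neural epiblast as well as in the gut. Its values were 7.62, 10.2, 5.10, 8.22 and 14.7 in the LPD lines and 11.0, 11.0, 17.1, 15.8 and 17.1 in the NPD lines. In 4 of 5 LPD lines the value was below that of every NPD line, and only LPD line 40 overlapped. The means were 9.17 ± 3.60 in LPD and 14.4 ± 3.15 in NPD (SD, 5 lines each), a log2 difference of -0.64 (SE 0.37, 95% interval -1.44 to 0.16). The limma p was 0.106 unadjusted and 0.994 adjusted (Benjamini-Hochberg). An exact permutation test over all assignments of lines to diets, two-sided and not adjusted, gave p = 0.0397. The smallest p possible in that test is 0.00794. It was run only on the genes of this group, so no share over all genes stands beside its p. With 1 line left out, the exact permutation p ran from 0.00794 (without LPD line 40) to 0.0873 (without LPD line 6), and was under 0.05 only without LPD line 40 or NPD line 8 or 15. This gene was counted from few reads, the equivalent of 3.49 to 22.7 per line, and the fewest were in LPD lines 4 and 6. Without LPD lines 4, 6 and 40, the lines of low depth, the log2 difference was -0.76, with 2 LPD lines left.

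Fgf5 (chr5:98254184-98277030, plus strand) encodes the ligand most used as a marker of the epiblast after implantation. Its values were 5.62, 15.3, 9.10, 9.23 and 16.0 in LPD and 7.02, 16.7, 9.86, 37.0 and 8.38 in NPD. NPD line 36 stood alone at the top, and the remaining lines of both diets shared 1 range. The log2 difference was -0.31 (SE 0.48, 95% interval -1.35 to 0.74) with an adjusted p of 0.994 in limma (Benjamini-Hochberg), and without NPD line 36 it was 0.05. Fgf8 (chr19:45736798-45742915, minus strand), a ligand of the primitive streak needed for cells to move through it, was near the limit of detection. It stood at 4.68, 4.83, 2.56, 2.97 and 1.24 in LPD and 2.62, 3.81, 9.88, 7.20 and 4.57 in NPD, the equivalent of 0.783 to 13.1 reads. The groups overlapped, and when genes of every level were tested the log2 difference was -0.61 (SE 0.45) with an adjusted p of 0.977 in limma (Benjamini-Hochberg).

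Otx2 (chr14:48657677-48673819, minus strand), the homeodomain factor that leads the formative change and later the forebrain, had the lowest unadjusted limma p of the 9. Its values were 202, 226, 90.3, 176 and 361 in the LPD lines and 186, 485, 515, 406 and 273 in the NPD lines. All 5 LPD lines were below the NPD median, LPD lines 6 and 20 were below every NPD line, and NPD line 8 lay within the LPD range. The means were 211 ± 98.5 in LPD and 373 ± 140.3 in NPD (SD, 5 lines each). The log2 difference was -0.85 (SE 0.35, 95% interval -1.62 to -0.09), with an unadjusted limma p of 0.0310 and an adjusted p of 0.952 (Benjamini-Hochberg). The exact permutation test gave p = 0.0714. With 1 line left out the difference stayed between -1.08 (without LPD line 40) and -0.58 (without LPD line 6), and the unadjusted limma p was above 0.05 without LPD line 6 or 20 or without NPD line 15, 21 or 36.

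The other transcription factors of the group differed less between the diets than between lines. Pou3f1 (chr4:124656807-124660655, plus strand), also called Oct6, a POU factor of the epiblast that favours neural fate, stood at 173, 184, 181, 446 and 171 in LPD and 201, 342, 133, 335 and 199 in NPD. LPD line 20 was the highest of all lines, while the other 4 LPD lines ran from 171 to 184. Its log2 difference was -0.10 (SE 0.31, 95% interval -0.77 to 0.58). Sox3 (chrX:60891366-60893430, minus strand), an X-linked relative of Sox2 in neural progenitors, stood at 67.2, 48.9, 27.8, 61.0 and 44.3 in LPD and 42.2, 49.3, 58.8, 93.1 and 90.4 in NPD. NPD lines 36 and 51 were the highest and LPD line 6 the lowest, and NPD line 15, whose X-linked genes stood higher as a whole, was in the middle. Its log2 difference was -0.40 (SE 0.30, 95% interval -1.06 to 0.25), and 0.01 without LPD lines 4, 6 and 40. Zic2 (chr14:122475435-122479852, plus strand) stood at 1219, 1169, 1025, 523 and 1414 in LPD and 671, 895, 1589, 1764 and 1292 in NPD, with LPD line 20 lowest and NPD line 36 highest. Its log2 difference was -0.20 (SE 0.30, 95% interval -0.84 to 0.44), and 0.04 without LPD line 20.

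Utf1 (chr7:139943789-139945112, plus strand) was the steadiest of the 10 genes. It stood at 7364, 9368, 7131, 11503 and 8758 in LPD and 7592, 8431, 9673, 9534 and 11212 in NPD, so its highest line was 1.61 times its lowest. The log2 difference was -0.08 (SE 0.14), and its 95% interval, -0.39 to 0.22, was the narrowest of the 9. The adjusted p was 0.994 for Sox3, Zic2 and Utf1 and 0.997 for Pou3f1 in limma (Benjamini-Hochberg).

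**Figure D3:**
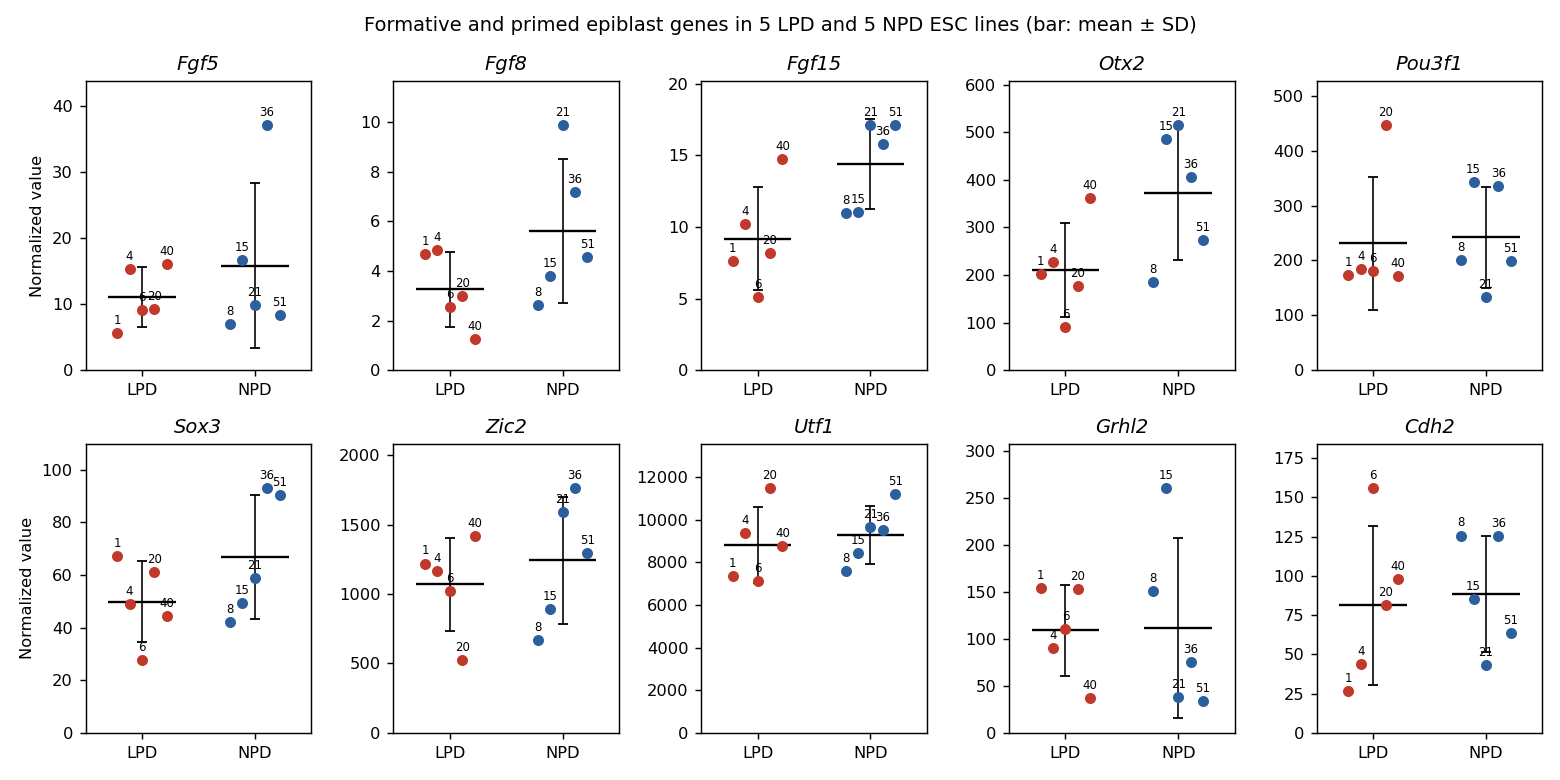
Normalized value (y axis, from 0) of each of the 10 genes in the 5 LPD lines (red) and 5 NPD lines (blue), each point numbered by line, with the group mean (bar) and SD (whiskers). For Fgf15 only LPD line 40 reaches into the NPD range of 11.0 to 17.1, for Pou3f1 LPD line 20 stands apart at 446, and for the other genes the points of the diets overlap.

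The pair of genes tied to keeping (Grhl2) or leaving (Cdh2) the epithelial form of the epiblast varied most and showed no separation by diet. Grhl2 (chr15:37233036-37363569, plus strand), a grainyhead factor, stood at 154, 90.1, 111, 153 and 37.1 in LPD and 151, 261, 38.2, 75.7 and 33.5 in NPD. LPD line 40 and NPD lines 21 and 51 shared a low level of 33.5 to 38.2, while the other lines ran from 75.7 to 261, so low and high lines occurred under both diets. Its log2 difference was 0.23 (SE 0.55, 95% interval -0.97 to 1.44) and was below 0 without NPD line 21 (-0.04) or 51 (-0.09). Cdh2 (chromosome 18, 16588877-16809246, minus strand) encodes N-cadherin, the adhesion protein that replaces E-cadherin as epiblast cells leave the epithelium, and fibroblasts carry it too. Its values were 26.8, 43.8, 156, 81.6 and 98.1 in LPD and 126, 85.0, 43.1, 125 and 63.9 in NPD. Its log2 difference was -0.26 (SE 0.45, 95% interval -1.23 to 0.71), and 0.07 without LPD line 1, the lowest line. The adjusted p was 0.994 for Cdh2 and 0.996 for Grhl2 in limma (Benjamini-Hochberg).

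Since fibroblasts carry Cdh2, their markers were read beside it. The summed level of 12 such markers was 523, 820, 5958, 468 and 683 in the LPD lines and 2681, 6188, 673, 2055 and 821 in the NPD lines, and 6 of the 12 were at 0 in at least 1 line. The sum was highest in NPD line 15, LPD line 6, NPD line 8 and NPD line 36, and the last 3 of these were also the 3 highest lines in Cdh2, at 156, 126 and 125, while NPD line 15 stood at 85.0. The part of these cells in the Cdh2 values was not tested. In bulk RNA, fewer cells of a kind and less RNA per cell cannot be told apart, which holds for every gene here. Of 8 fibroblast markers tested 7 were lower in LPD and 1 higher, with a median log2 difference of -0.99, and 0 had an unadjusted limma p under 0.05.

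Across the 10 lines regardless of diet, 8 of the 9 genes tested varied more than the median gene, Utf1 being the exception. The SD of the log2 value was 1.01 for Grhl2, 0.80 for Cdh2, 0.78 for Otx2, 0.73 for Fgf5, 0.55 for Pou3f1 and Zic2, 0.52 for Fgf15, 0.51 for Sox3 and 0.24 for Utf1, where the median over all genes tested was 0.27. Low genes carry more counting error, so the 5 genes whose mean reached 100 were also set among the 10455 genes above that level. There, Grhl2 varied more than 99.0% of genes, Otx2 more than 97.9%, Pou3f1 more than 94.9%, Zic2 more than 94.8% and Utf1 more than 58.0%. The lines did not share 1 ranking. NPD line 36 lay above the 10-line median in 9 of the 10 genes, Grhl2 being the exception, and was the highest line in Fgf5, Zic2 and Sox3. LPD line 6 lay below it in 8, all but Grhl2 and Cdh2, and was the lowest line in Otx2, Fgf15, Sox3 and Utf1. LPD line 20 combined the highest Pou3f1 and Utf1 with the lowest Zic2.

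**Figure D4:**
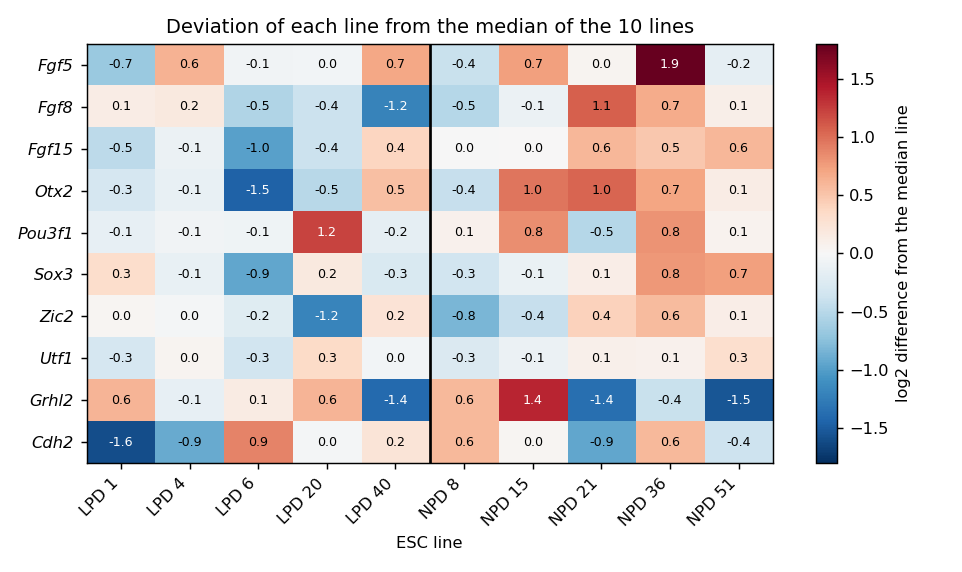
Log2 difference of each ESC line (columns, LPD left and NPD right of the black line) from the median of the 10 lines, for each of the 10 genes (rows), from blue (lower) to red (higher). NPD line 36 is above the median in 9 of the 10 genes and LPD line 6 below it in 8, while Grhl2 is lowest in LPD line 40 and NPD lines 21 and 51.

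Whether the genes moved together across lines was examined for the 36 pairs of the 9 genes tested, over 10 lines on the log2 scale. Of these pairs 22 had a positive Pearson r, with a median r of 0.26. Otx2 and Fgf15 were the closest pair, with r = 0.83 (permutation p = 0.00285, Benjamini-Hochberg adjusted p = 0.103) and Spearman rho = 0.83 (permutation p = 0.00468, adjusted p = 0.168). LPD line 6 was lowest in both genes and NPD line 21 highest in both. Without the 2 lines farthest from the middle in Otx2 r was 0.60. With the diet means removed r was 0.73, and with 1 line left out it ran from 0.69 (without LPD line 6) to 0.91 (without NPD line 15).

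Grhl2 ran opposite to Zic2 and to Fgf15. With Zic2 r was -0.66 (permutation p = 0.0367) and rho -0.70 (permutation p = 0.0303), and r was -0.70 without the 2 lines farthest out in Zic2. With Fgf15 r was -0.66 (permutation p = 0.0393) and rho -0.66 (permutation p = 0.0433), and r was -0.75 without the 2 lines farthest out in Fgf15. Sox3 and Utf1 had r = 0.63 (permutation p = 0.0474) and rho = 0.59 (permutation p = 0.0790), with r = 0.52 without the 2 lines farthest out in Sox3. The adjusted p of these 3 values of r was 0.418 by the Benjamini-Hochberg method over the 36 permutation tests, and 0 of the 36 pairs had an adjusted p under 0.05, against 4 with an unadjusted p under 0.05. Within each diet there are 5 lines, too few for a correlation.

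**Figure D5:**
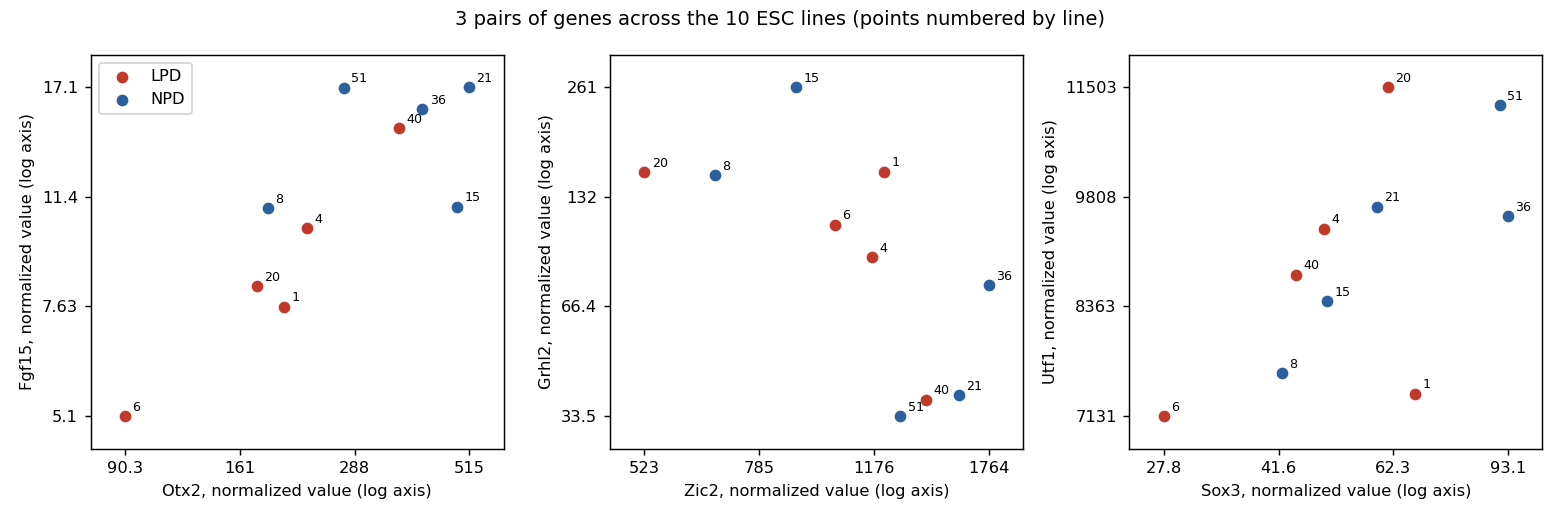
Normalized values (both axes log) of 3 pairs of genes in the 5 LPD lines (red) and 5 NPD lines (blue), numbered by line: Fgf15 against Otx2, Grhl2 against Zic2 and Utf1 against Sox3. The first pair runs from LPD line 6 at the lower left to NPD line 21 at the upper right, and in the second LPD line 40 and NPD lines 21 and 51 lie together at the bottom with high Zic2 and low Grhl2.

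The 3 genes tested that varied most were each set against every other gene whose mean reached 100, and those with the most similar pattern over the 10 lines are given as a description. For Grhl2 these were Kctd3 (r = 0.95), Tle3 (0.93) and Tmem63b (0.93). Like Grhl2, Kctd3 and Tle3 were lower in LPD line 40 and NPD lines 21 and 51 than in every other line. Tmem63b was not, standing at 1582 in NPD line 36 and 1588 in NPD line 51. Genes chosen by their r share such lines through the choice itself. Tle3, a Groucho corepressor, stood at 2078 in LPD line 40, 2385 in NPD line 21 and 2111 in NPD line 51, and at 2576 to 3329 elsewhere. For Cdh2 they were Pmp22 (0.93), a membrane protein of myelin, Slc38a7 (0.92), an amino acid transporter, and Csf1 (0.90), the growth factor of macrophages, which stood at 987 in LPD line 6 and at 25.7 in LPD line 1. For Otx2 they were Gm340 (0.94), Carm1 (0.93), an arginine methyltransferase, and Med18 (0.92), a Mediator subunit. Carm1 ran only from 2161 in LPD line 6 to 2913 in NPD line 21, so a similar pattern did not mean a similar size of change. These values of r are the highest of those of 10454 genes for Grhl2 and Otx2 and 10455 for Cdh2, and all points share the same 10 libraries.

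The other genes of the same programme were read as lists. Of 14 further formative and primed genes tested, 10 were lower and 4 higher in LPD, with a median log2 difference of -0.13. Of these 14, 1 had an unadjusted limma p under 0.05, as did 5.02% of all genes tested. The gene of the list with such a p was Sall2, a zinc finger factor, at 73.1 ± 9.24 in LPD and 141 ± 70.3 in NPD (SD, 5 lines each). Its log2 difference was -0.79 (SE 0.33), with an adjusted limma p of 0.952 (Benjamini-Hochberg). All 5 LPD lines were below the NPD median of Sall2, but NPD line 21, at 53.7, was the lowest of all lines. Next by p was Dnmt3b, the de novo DNA methyltransferase switched on in the formative phase. It was at 2687 ± 602 in LPD and 3084 ± 559.6 in NPD, a log2 difference of -0.21 (SE 0.16). Pim2 had a log2 difference of -0.31 (SE 0.27). Among 14 relatives of the 10 genes by family, 8 were lower and 6 higher with a median of -0.07, and 0 had an unadjusted p under 0.05. Otx1, the closest relative of Otx2, was at 17.3 ± 5.26 in LPD and 10.4 ± 5.51 in NPD. That is a log2 difference of 0.80 (SE 0.42), on the other side of 0 from Otx2, with an adjusted limma p of 0.994 (Benjamini-Hochberg). Values this low rest on few reads, and the highest, 25.7, was in LPD line 4, the line of lowest depth. Fgf4, the ligand ESCs make themselves, had a log2 difference of -0.25 (SE 0.15) and Sox2 of -0.16 (SE 0.10).

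Among genes of the relay downstream of FGF, the 3 lowest p belonged to feedback inhibitors, while other feedback inhibitors of the list differed less. Of 22 receptor, adaptor, kinase and feedback genes tested, 12 were higher and 10 lower in LPD with a median log2 difference of 0.04. An unadjusted limma p under 0.05 was found in 5.02% of all genes tested and in 3 of these 22, all higher. They were Spry4 (log2 difference 0.82, SE 0.24), Spry2 (0.32, SE 0.11) and Dusp6 (0.79, SE 0.29), which encode feedback inhibitors of FGF and ERK signalling that the pathway itself induces. Spry4 was at 3323 ± 1281 in LPD and 1812 ± 433 in NPD, and Dusp6 at 2976 ± 1378 in LPD and 1662 ± 516 in NPD (SD, 5 lines each). In each of the 3, 3 LPD lines lay above every NPD line. LPD line 20 was the highest of all lines in each, at 5159 in Spry4, 3340 in Spry2 and 5237 in Dusp6. Results without that line are not given for these genes. The Benjamini-Hochberg adjusted limma p was 0.665, 0.850 and 0.860 for Spry4, Spry2 and Dusp6, so none passed. Other feedback inhibitors in the list were Spry1 (log2 difference 0.09, SE 0.20) and Spred1 (0.22, SE 0.15), with Spred2 (-0.02, SE 0.16) and Il17rd (-0.12, SE 0.15) below 0.

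Genes of the naive state that precedes the formative phase did not share 1 direction. Of 14 naive genes tested 9 were lower and 5 higher in LPD, with a median log2 difference of -0.08. An unadjusted limma p under 0.05 was found in 1 higher and 1 lower gene of the list, and in 5.02% of all genes tested. Klf5, a naive factor, was at 6309 ± 1125 in LPD and 4396 ± 407 in NPD, a log2 difference of 0.51 (SE 0.12), with an adjusted limma p of 0.451 (Benjamini-Hochberg). Prdm14, which represses the formative programme, was at 213 ± 85.8 in LPD and 322 ± 59.8 in NPD. That is a log2 difference of -0.73 (SE 0.33), with an adjusted limma p of 0.987 (Benjamini-Hochberg). The estimates of these 2 naive factors had opposite signs, and neither passed adjustment. Of 8 general pluripotency genes 5 were lower and 3 higher, with a median of -0.03. Of 19 epithelial junction genes 14 were higher and 5 lower with a median of 0.17, led by Cldn4 (log2 difference 0.66, SE 0.35). The summed level of the 20 listed ran from 15647 to 32450 in LPD lines and from 13303 to 23825 in NPD lines. The highest sum was in LPD line 6, and the next LPD line stood at 19113. Of 7 genes of the mesenchymal transition 5 were higher and 2 lower with a median of 0.15. Neither of these last lists held a gene with an unadjusted limma p under 0.05.

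Markers of later fates were read in the same way. Of 4 primitive streak markers tested 3 were higher and 1 lower in LPD, with a median log2 difference of 0.38, and the summed level of the 8 listed was 402 to 467 in LPD lines and 307 to 514 in NPD lines. Of 5 neural markers 2 were higher and 3 lower, and Tubb3, a neuronal tubulin, had a log2 difference of -0.38 (SE 0.15) with an adjusted limma p of 0.952 (Benjamini-Hochberg). Nes, an intermediate filament protein of neural progenitors, was at 552 ± 453 in LPD and 218 ± 95.7 in NPD, a log2 difference of 1.00 (SE 0.49) on the other side of 0. All 6 primitive endoderm markers were higher, with a median of 0.28, but their summed level ran from 614 to 4175 in LPD lines and from 448 to 4877 in NPD lines. Of 4 trophectoderm markers 2 were higher and 2 lower. In none of these lists did a gene pass an adjusted p of 0.1 in limma (Benjamini-Hochberg).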

How the data were processed

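RNA sequencing of 10 ESC lines (5 LPD, 5 NPD) was re-analysed, with 1 line as 1 replicate and groups taken from the sample labels. According to the paper and the submitters' processing notes, the authors enriched mRNA with oligo(dT), trimmed reads with cutadapt, quantified GRCm38 transcripts with Salmon and tested them with sleuth 0.30.0. The deposited values are a signal, namely estimated counts per gene scaled between lines. How transcripts were summed to genes is not given in the sources used here.

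Of the 20206 genes, 19891 were matched by identifier to a gene symbol. Positions and transcript lengths came from GENCODE M21 on GRCm38. Over all genes 63.9% to 72.8% of low values were whole multiples of 1 read (tolerance 0.15), too few to go back to reads, and count models were not used. Depth is the line total divided by the value of 1 read, 5757690 to 24191400 read equivalents. Values were tested as log2(value + 1), with a mean of at least 10, by limma 3.58.1 in R 4.3.3 with a mean-variance trend and Benjamini-Hochberg adjustment at 0.1 and 0.05, a step tested on simulated data, and single genes by two-sided exact permutation. Pair correlations used 100000 permutations. Python 3.11.15, pandas 2.3.3, numpy 2.4.6, scipy 1.17.1 and matplotlib 3.10.9 served for the rest.

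All 10 genes are described. From every other list the 3 genes with the smallest limma p were eligible for naming, with every gene under an unadjusted p of 0.05, and for the 3 most variable of the 10 the 3 genes most like them. Further feedback inhibitors of the FGF relay list are also named. The genes and lists were chosen with earlier results of these data known. Alternatives were pseudocounts of 0.5 and 10, no filter, a mean of at least 100, an equal total per line, quantile normalization, limma without a trend or with array weights, and lines left out. Leaving out LPD lines 4, 6 and 40 together was chosen after seeing the data.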

Additional observations from a re-analysis of the deposited data

Results flagged for a closer look

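Each of the 10 genes was examined in each diet, 20 groups of 5 lines in all, and 1 group held a line far from the others. Pou3f1 stood at 446 in LPD line 20, and the gap to the nearest LPD line made up 0.953 of the whole range of the LPD lines, above the Dixon 95% limit of 0.71 for 5 values. Chance alone marks about 1 in 20 such groups. LPD line 20 held 24191400 read equivalents, the most of the 10 lines, and without it the log2 difference of Pou3f1 between the diets was -0.36. The same line had the lowest Zic2 value of all 10 lines, at 523.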

How the results depend on the processing

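No gene among the 9 tested had a Benjamini-Hochberg adjusted limma p under 0.1 in any setting. Over all genes, 0 had an adjusted p under 0.05 with 10 lines, 0 to 17 with 1 line left out (17 without LPD line 40, 1 without LPD line 1 and 1 without NPD line 8) and 5 without LPD lines 4, 6 and 40. The number of the 9 genes with an unadjusted p under 0.05 was 1 with 10 lines, 0 to 1 with 1 line left out and 0 without LPD line 4 and NPD line 15. Otx2 kept its direction in every setting and had an unadjusted p under 0.05 in 14 of 21. Without a trend in limma, p was 0.0502 for Otx2 and 0.0252 for Fgf15, and the 1 gene counted was then Fgf15. With array weights, 1 gene of all tested had an adjusted p under 0.1. The adjusted p of Otx2 ran from 0.495 to 1.00.

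With 1 line left out, the log2 difference ran from -0.51 to 0.053 for Fgf5, changing sign without NPD line 36, and from -0.36 to 0.050 for Pou3f1, changing sign without NPD line 15 or 36. It ran from -0.40 to 0.037 for Zic2 (above 0 without LPD line 20), from -0.56 to 0.070 for Cdh2 (above 0 without LPD line 1) and from -0.086 to 0.64 for Grhl2 (below 0 without NPD line 21 or 51). That of Pou3f1 was also 0.10 without LPD line 4 and NPD line 15 and 0.28 without LPD lines 4, 6 and 40, and that of Sox3 0.011 in the last case. In each of these the fit had fewer lines, and the cause was not tested. Pseudocounts, filters, scaling and variance models changed no direction.

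Of the 36 pairs, 0 had an adjusted p under 0.05 with 10 lines and 0 to 1 with 1 line left out (1 without NPD line 15). At an unadjusted p there were 4, with 1 to 6 when 1 line was left out and 2 after rescaling to the same total. Fgf8 has a value only without the filter. Depth limits Fgf8, Fgf15 and Fgf5 most. No paired analysis was possible because the diets share no line numbers.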
